A study of Mus musculus with 12 samples.

Results

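The genes of the proteasome and its regulators were followed in 2 leg muscles, soleus and tibialis anterior (TA), of mice labelled as H6pd knockout (KO) or wild type (WT). Members were all genes whose symbol in the array's probe table runs from Psma to Psmg followed by a number, with probe sets that carry a single symbol and, for each gene, the brightest one. This gave 47 genes of 18194 with such a probe set, and 45 of them were among the 13010 genes bright enough to test. The 2 left out as dim were Psma8, a core subunit known from testis, and Psmb11, a core subunit known from thymus. By role the 47 genes were 14 constitutive core subunits, 5 inducible or tissue-restricted core subunits, 6 ATPases and 14 other genes of the regulatory cap, 3 activators, and 5 genes of an inhibitor and assembly chaperones.

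The proteasome is the protease that breaks down most ubiquitin-tagged proteins of the cell. Its barrel-shaped core carries the proteolytic sites on inner rings of beta subunits, between outer rings of alpha subunits that form the gate. A cap of ATPases and receptor subunits binds ubiquitin chains and threads the substrate into the core, while other activators open the gate without ubiquitin or ATP. In skeletal muscle this system degrades myofibrillar proteins, and its genes are known to rise when muscle wastes.

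The study holds 12 arrays in 4 groups of 3, namely the soleus of KO and of WT mice and the TA of KO and of WT mice, all at 4 weeks of age. H6pd encodes the enzyme that generates NADPH in the lumen of the endoplasmic reticulum. Per the design text the animals were weaned, histology showed no overt myopathy, and the muscles were picked for their unlike fibre types. The labels call the arrays of a group biological replicates and give neither strain, sex nor the construction of the null allele, so p-values measure the spread between these arrays. They do not say whether a soleus and a TA array came from the same mouse. The main fit treats the 12 arrays as independent, also between the muscles and in the interaction. Values are log2 signals of whole muscle, in which fewer cells of a type and less RNA per cell cannot be told apart. Slow fibre markers (5 genes) averaged between 14.94 and 15.31 on the soleus arrays, and the fast fibre myosin gene Myh4 averaged 11.57 in KO soleus and 11.46 in WT soleus, against 15.85 in KO TA and 15.91 in WT TA, as the muscle labels say.

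The H6pd probe set averaged 4.90 ± 1.04 in KO soleus and 6.27 ± 0.78 in WT soleus (SD, n = 3 each, log2 difference -1.36, limma adjusted p = 0.577). It averaged 6.96 ± 0.50 in KO TA and 6.85 ± 0.93 in WT TA (log2 difference 0.11, adjusted p = 0.966). The sources used here do not say whether this probe set lies in the deleted part of the gene, so it does not check the genotype labels, and KO and WT below are the groups as labelled. The arrays numbered 3 stood apart in every group: on the second principal component of the tested genes (18.6% of the variance) they lay between -33.9 and -23.7 and the others between 5.8 and 21.9. Of the 45 members, 14 (31.1%) were lower on the array numbered 3 than the mean of the other two in all 4 groups, against 13.3% of all tested genes, and 7 (15.6%) were higher, against 27.3%. Psmd10, an assembly chaperone of the cap, was on average 0.74 lower there and Psma4, an alpha ring subunit, 0.55 lower. Main results are therefore also given without these 4 arrays.

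Levels of the 45 members spanned mean log2 signals from 3.74 to 13.44, and 34 of them lay above 9, in a table whose array median was near 3.09. These are probe set signals, so the level of 1 gene was not set against that of another. In KO TA against WT TA 1 member of 45 passed the test, the activator gene Psme4, where 2.83% of all genes tested passed and 1.41% did so as lower in KO. In KO soleus against WT soleus 0 members passed, where 0.0307% of all genes passed. At an unadjusted p under 0.05 these counts were 15 of 45 in TA, against 17.1% of all genes, and 9 of 45 in soleus, against 8.76%. Of the TA members 13 were lower and 2 higher in KO, against 9.13% and 7.95% of all genes. Of the soleus members 4 were lower and 5 higher, against 4.47% and 4.3%.

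Psme4, the member past the test in TA, is an activator gene. It encodes PA200, a large activator that docks on the end of the core and is known for ATP-independent turnover of acetylated histones. Its probe set gave log2 signals of 11.94, 11.86 and 12.20 in KO TA and of 13.05, 12.94 and 13.34 in WT TA. All 3 KO TA arrays lay below all 3 WT TA arrays, with a log2 difference of -1.11 (SE 0.14, limma adjusted p = 0.00819), a level 2.16 times lower. The call held without the arrays numbered 3 (-1.10, adjusted p = 0.0426) and without any single TA array. It was lost in a fit on the TA arrays alone (-1.12, adjusted p = 0.0584), and the difference shrank to -0.72 when all kept probe sets of the gene were averaged (adjusted p = 0.0179). Over all alternatives the adjusted p ran from 0.00426 to 0.0584.

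In the soleus the probe set used for Psme4 also separated the genotypes without passing the test. Signals were 11.86, 11.62 and 11.58 in KO soleus and 11.98, 12.23 and 12.36 in WT soleus, with no overlap. The log2 difference was -0.50 (SE 0.14, adjusted p = 0.301), and -0.37 without the arrays numbered 3. It shrank to -0.24 when all kept probe sets of the gene were averaged (adjusted p = 0.674). Whether the KO effect differed between the muscles was tested as an interaction, and the difference of 0.61 (soleus minus TA, SE 0.20) did not pass (adjusted p = 0.743). In a fit over all kept single-symbol probe sets, the 2 other bright Psme4 probe sets had KO minus WT differences of -1.15 (adjusted p = 0.0381) and -1.31 (adjusted p = 0.138) in TA and of -0.51 and -0.78 in soleus, so 3 probe sets had the same sign in both muscles. In soleus KO and WT overlapped on both of these other probe sets (adjusted p = 0.649 and 0.726).

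**Figure D1:**
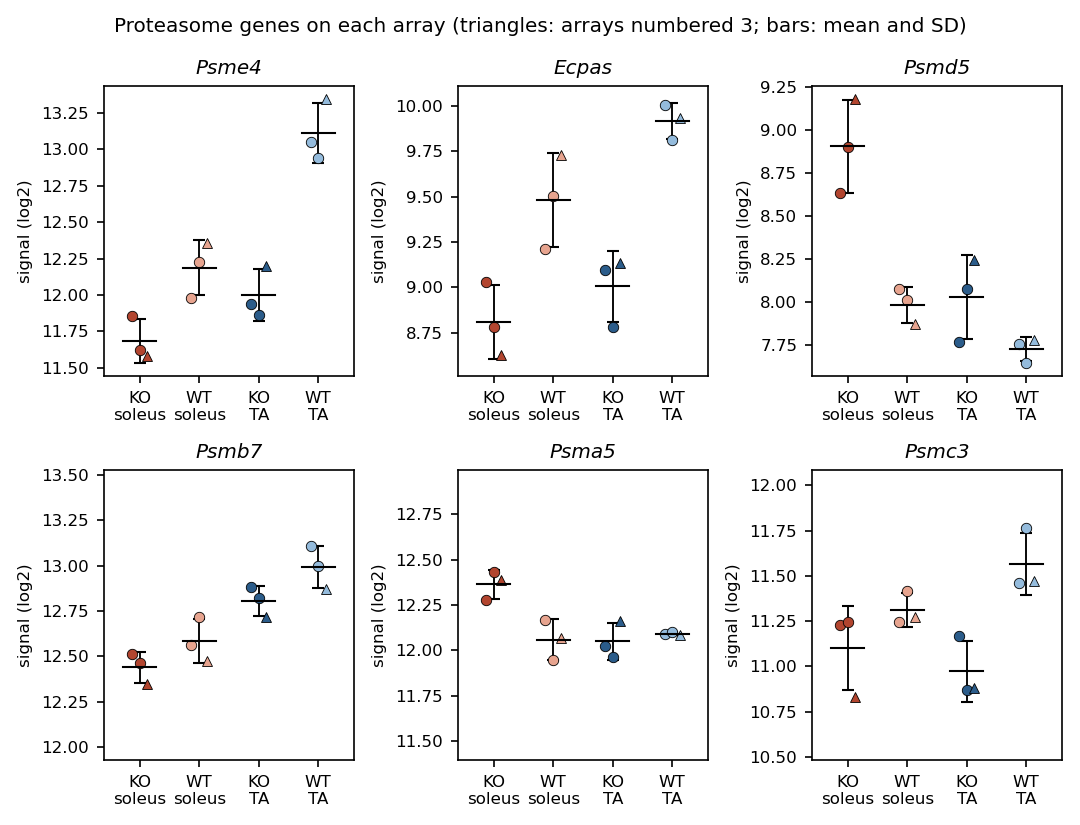
Log2 signal (y axes, each with its own range) of 6 proteasome genes on each of the 12 arrays, by group (x axes). Points are arrays, triangles the arrays numbered 3, and bars the mean and SD of 3 arrays. Psme4 and Ecpas lie lower in KO TA than in WT TA, and Psmd5 lies higher in KO soleus than in the other groups.

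The promoter of Psme4 is shown because this gene carries the TA result, and that of Psmd5, described further on, because its soleus difference was the highest of all members. Sequences are RefSeq's on build GRCm38.p6, from 250 bases before to 50 bases after the start of the gene. Psme4 lies at chr11:30771525-30771824 on the plus strand and Psmd5 at chr2:34870913-34871212 on the minus strand, each written 5′ to 3′ along the gene. Capitals mark matches, on either strand, to TGACNNNGC, the core of the antioxidant response element that Nfe2l1 and Nfe2l2 bind, and to GGGCGG, the GC box. CCAAT was searched as well.
Psme4: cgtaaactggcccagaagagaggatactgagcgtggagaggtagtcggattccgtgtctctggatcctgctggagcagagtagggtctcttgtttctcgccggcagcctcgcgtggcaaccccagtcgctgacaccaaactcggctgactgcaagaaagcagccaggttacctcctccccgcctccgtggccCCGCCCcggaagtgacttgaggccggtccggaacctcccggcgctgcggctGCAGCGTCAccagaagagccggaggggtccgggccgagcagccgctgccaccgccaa
Psmd5: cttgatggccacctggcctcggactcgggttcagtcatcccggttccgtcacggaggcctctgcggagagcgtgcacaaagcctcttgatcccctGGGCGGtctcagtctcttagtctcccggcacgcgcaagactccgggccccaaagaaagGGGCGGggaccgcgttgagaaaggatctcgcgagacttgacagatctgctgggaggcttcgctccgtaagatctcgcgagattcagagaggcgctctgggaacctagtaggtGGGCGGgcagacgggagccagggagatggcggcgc
Psme4 held 1 match to TGACNNNGC and 1 to GGGCGG, Psmd5 held 3 to GGGCGG, neither held CCAAT, and 0 matches overlapped. Of the 45 tested members 38 had a promoter entry. TGACNNNGC was in 6 of these 38 and in 12.4% of 32851 promoters of that length. GGGCGG was in 22 of 38 and in 35.7% of all, and CCAAT in 13 of 38 and in 37.4% of all. A member was counted if any promoter listed for it matched, while all promoters were counted singly, so these shares differ in unit. A match describes the letters of the window and is not a bound site.

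The other activators did not pass in either muscle. Psme1 encodes the alpha chain of the interferon-induced activator PA28. It averaged 9.57 ± 0.06 in KO soleus and 10.01 ± 0.18 in WT soleus (SD, n = 3 each), without overlap (log2 difference -0.44, adjusted p = 0.353), and the TA difference was -0.08 (adjusted p = 0.848). Psme3, the nuclear PA28 gamma, differed by -0.06 in soleus and 0.14 in TA (adjusted p = 0.999 and 0.71). Psme2, the beta chain, has only a probe set shared with Psme2b and was not a member. That shared probe set differed by -0.04 in soleus and by -0.25 in TA (adjusted p = 0.517).

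The regulatory cap's ATPases form the ring that unfolds substrates, and their signals averaged lower in KO TA than in WT TA. All 6 had a KO minus WT difference below 0 in TA, with a median of -0.41 where all genes tested had 0.00, and 0 passed the test. With each array centred on its median 5 of 6 were below 0 (median -0.32), and without the arrays numbered 3 the median was -0.40. In KO soleus against WT soleus 5 of 6 were below 0, with a median of -0.02. As deviations from the mean of 12 arrays, the ATPase medians on the KO TA arrays were -0.10, -0.22 and -0.11. Those of KO soleus were -0.09, -0.03 and -0.12, and those of WT soleus 0.03, 0.03 and 0.02. WT TA gave 0.01, 0.37 and 0.26, so its arrays 2 and 3 were the highest. In WT soleus against WT TA 6 of 6 were lower (median -0.18). In KO soleus against KO TA 6 of 6 were higher (median 0.08). Psmc3 gave 11.17, 10.87 and 10.88 in KO TA and 11.46, 11.76 and 11.47 in WT TA. The groups did not overlap, and the log2 difference of -0.59 (SE 0.14) stood just outside the threshold (adjusted p = 0.0547, and 0.141 without the arrays numbered 3).

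Psmc5, the second ATPase by p, gave 10.86, 10.70 and 10.84 in KO TA and 10.99, 11.40 and 11.41 in WT TA. Its log2 difference was -0.47 (SE 0.12, adjusted p = 0.0639), again with no overlap. In soleus Psmc5 differed by -0.30 and Psmc3 by -0.21, both without overlap and neither past the test (adjusted p = 0.477 and 0.79). For Psmc3 the groups nearly touched, at 11.2447 on the highest KO soleus array and 11.2458 on the lowest WT soleus array. Psmc2 and Psmc1 differed by -0.35 and -0.46 in TA, Psmc6 by -0.23 and Psmc4 by -0.01. For Psmc6 the probe set choice mattered: a dimmer one fell by 0.88 in KO TA and passed in the fit over all probe sets (adjusted p = 0.0423), and another differed by -0.81 (adjusted p = 0.12).

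The remaining cap genes encode scaffold, ubiquitin receptor, deubiquitinase and chaperone proteins, and they spread to both sides. Of these 14, in TA 0 passed. Psmd6, a lid subunit, had the lowest TA difference of them: 12.09, 11.76 and 11.86 in KO TA and 12.61, 12.59 and 12.21 in WT TA (log2 difference -0.57, SE 0.16, adjusted p = 0.088). A second bright Psmd6 probe set differed by -0.43 in TA, with overlapping groups (adjusted p = 0.80 in the fit over all probe sets). In soleus it differed by 0.61, against -0.27 for the probe set used. Psmd1, a large scaffold subunit, differed by -0.45 (adjusted p = 0.167), and Psmd14, the deubiquitinase that removes the chain at the pore, by -0.17 (adjusted p = 0.318). Psmd11, a lid subunit, lay on the other side, at 0.26 in TA and 0.32 in soleus without overlap in either. Its other bright probe sets were not of 1 sign in TA, at 0.28, -0.38 and -0.26.

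Psmd5, an assembly chaperone of the cap's base that also restrains capped proteasomes, had the largest positive KO difference of all members. It gave 8.64, 8.90 and 9.18 in KO soleus and 8.07, 8.01 and 7.87 in WT soleus. The 3 KO soleus arrays lay above every array of the other groups, and the log2 difference was 0.92 (SE 0.16), a level 1.89 times higher. It did not pass over all genes (adjusted p = 0.125), and without the arrays numbered 3 the difference was 0.72 (adjusted p = 0.506). In TA the signals were 7.76, 8.08 and 8.25 in KO TA and 7.76, 7.64 and 7.78 in WT TA, which overlap, and the difference was 0.30 (adjusted p = 0.394). The interaction of 0.62 (SE 0.23) did not pass either (adjusted p = 0.81).

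**Figure D2:**
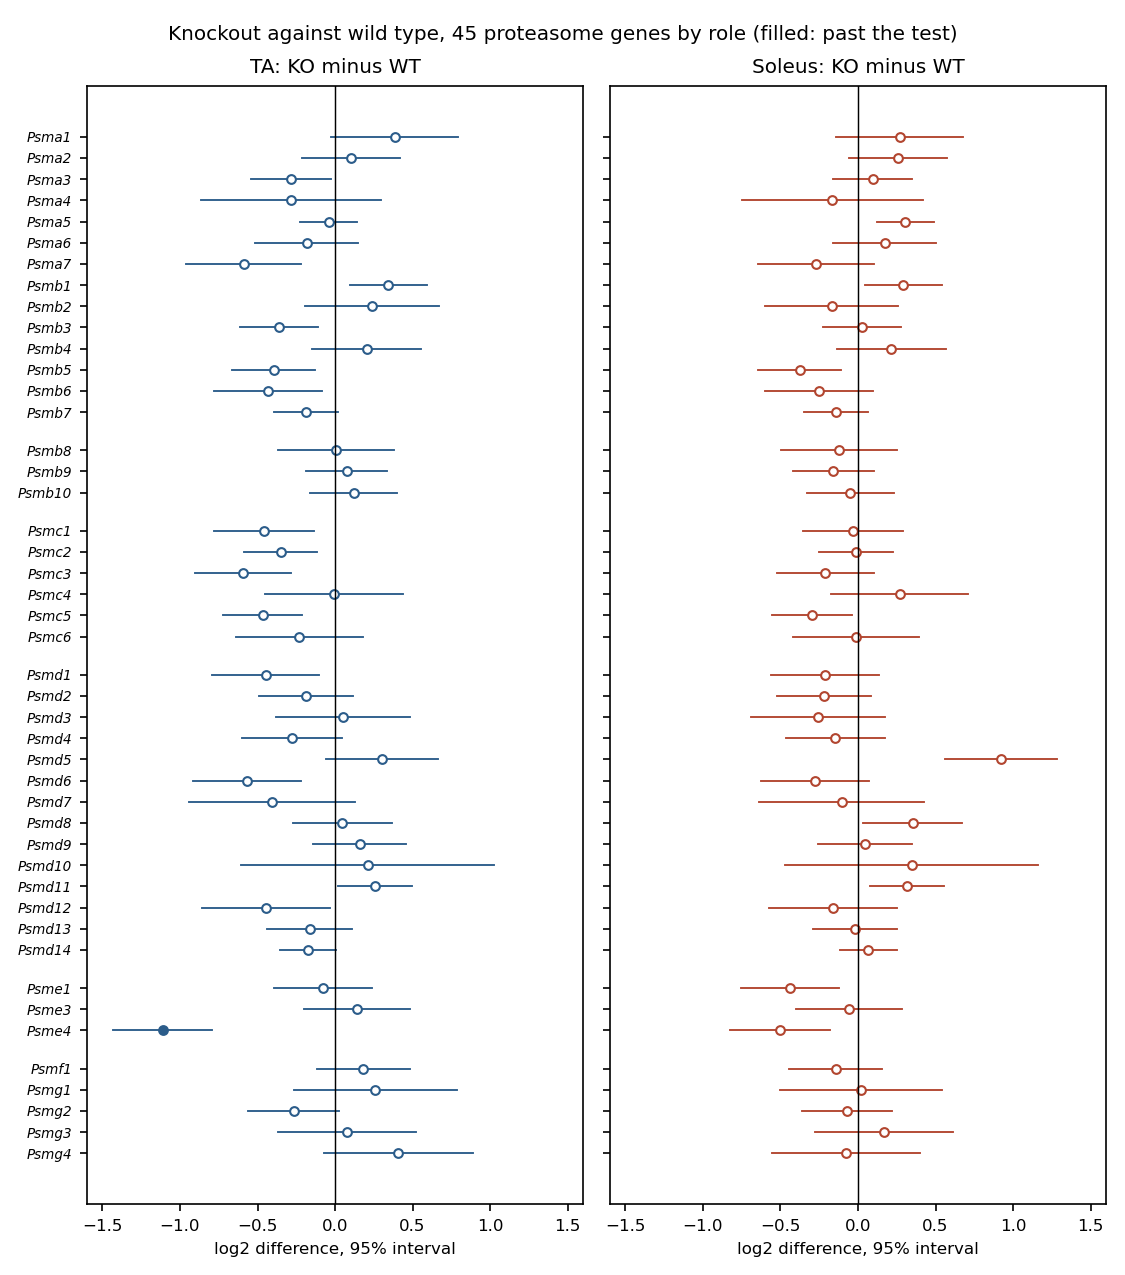
KO minus WT log2 difference (x axes) of each of the 45 tested members in TA (left) and in soleus (right), with 95% intervals of the limma fit. Genes run down the page by role: constitutive core, inducible core, ATPases, other cap genes, activators, inhibitor and chaperones. The filled point, Psme4 in TA at -1.11, is the member past the test, and Psmd5 in soleus stands at 0.92.

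Among the 14 constitutive core subunits 0 passed in KO against WT in either muscle. The catalytic beta subunits all had differences below 0. Psmb5, the chymotrypsin-like site, gave 11.83, 11.95 and 11.85 in KO soleus and 12.20, 12.38 and 12.19 in WT soleus. It gave 11.92, 11.77 and 12.09 in KO TA and 12.23, 12.17 and 12.56 in WT TA. KO and WT did not overlap in either muscle, with log2 differences of -0.38 in soleus (SE 0.12, adjusted p = 0.342) and -0.40 in TA (SE 0.12, adjusted p = 0.116).

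Psmb6, the caspase-like site, gave 11.70, 11.65 and 11.42 in KO soleus and 11.92, 11.97 and 11.63 in WT soleus, which overlap (log2 difference -0.25, adjusted p = 0.773). In TA it gave 11.71, 11.26 and 11.82 in KO and 11.96, 11.94 and 12.17 in WT, without overlap (-0.43, SE 0.16, adjusted p = 0.186). Psmb7, the trypsin-like site, differed by -0.14 in soleus and -0.19 in TA, with overlapping groups. Of the alpha ring, Psma7 had the lowest TA difference, -0.59 (SE 0.17, adjusted p = 0.095, groups not overlapping), and Psma5 the highest soleus difference, 0.31 (SE 0.08, adjusted p = 0.287, groups not overlapping). Psmb1, a beta subunit with no proteolytic site, was higher in KO without overlap in both muscles, by 0.29 in soleus and 0.34 in TA (adjusted p = 0.466 and 0.141).

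The inducible beta subunits replace the catalytic ones after interferon and are most abundant in immune cells. Psmb8 gave 5.39, 5.09 and 4.92 in KO soleus, 5.54, 5.10 and 5.12 in WT soleus, 5.12, 5.15 and 5.19 in KO TA, and 4.94, 5.21 and 5.28 in WT TA. Psmb9 lay between 3.64 and 4.08 on all arrays, near the low end of the table. Psmb10 was brighter, averaging 7.94 ± 0.10 in KO soleus, 7.99 ± 0.18 in WT soleus, 8.21 ± 0.07 in KO TA and 8.09 ± 0.14 in WT TA (SD, n = 3 each). KO and WT overlapped for all 3 genes in both muscles. The TA differences of Psmb8, Psmb9 and Psmb10 were 0.01, 0.08 and 0.12, with 95% intervals from -0.37 to 0.38, from -0.19 to 0.34 and from -0.16 to 0.40. Their soleus differences were -0.12, -0.16 and -0.05.

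**Figure D3:**
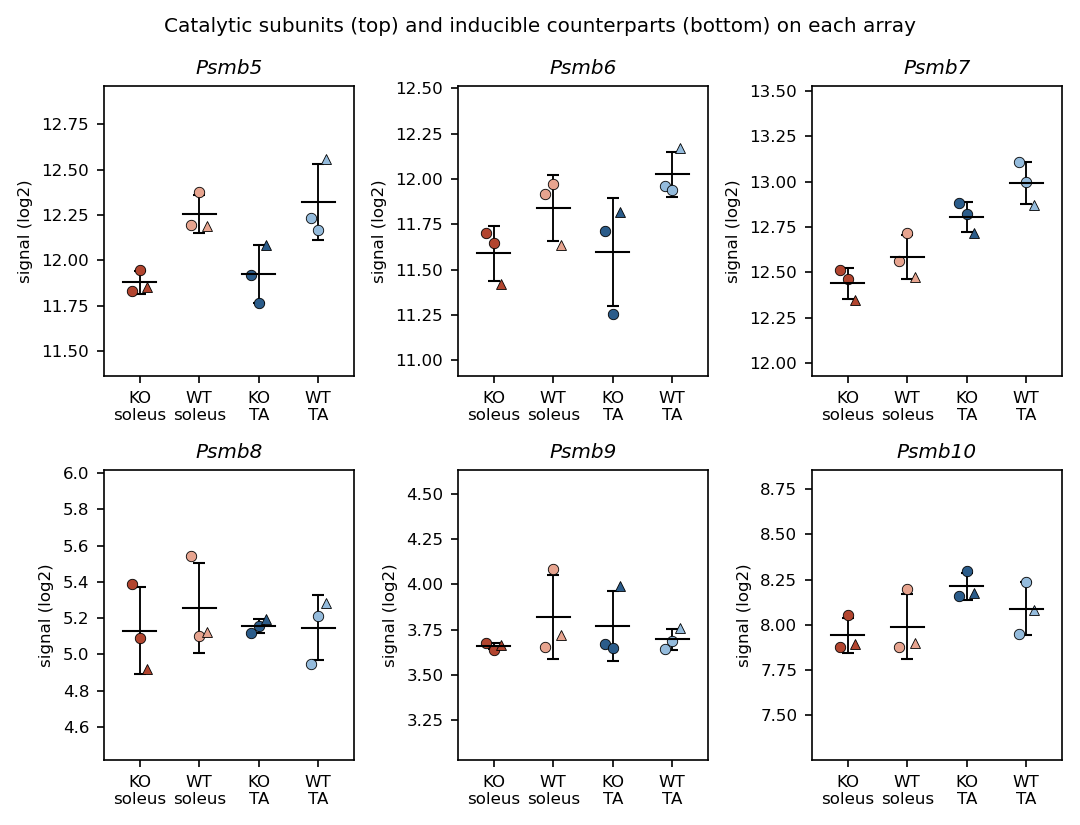
Log2 signal (y axes, each with its own range) of the catalytic beta subunits Psmb5, Psmb6 and Psmb7 (top) and of their inducible counterparts Psmb8, Psmb9 and Psmb10 (bottom) on each array, by group (x axes). Points are arrays, triangles the arrays numbered 3, and bars the mean and SD of 3 arrays. KO lies below WT without overlap for Psmb5 in both muscles and for Psmb6 in TA, and the groups overlap for the inducible subunits.

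Of the inhibitor and chaperones, 0 of 5 passed in KO against WT. Psmf1, the inhibitor PI31, differed by -0.14 in soleus and 0.18 in TA. Psmg1 and Psmg2, which pair to build the alpha ring, differed by 0.02 and -0.07 in soleus and by 0.26 and -0.27 in TA. Psmg3 and Psmg4, the second such pair, differed by 0.17 and -0.08 in soleus and by 0.08 and 0.41 in TA, at low signals.

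Over all 45 members the TA differences had a median of -0.16, with 26 below 0 (57.8%), where all genes tested had a median of 0.00 and 51.4% below 0. In TA 13 members lay lower in KO than in WT without overlap and 5 higher, against 12.5% and 10.7% of all genes. In soleus the median was -0.06, with 28 below 0 (62.2%, all genes 48.9%), and 5 members lay lower and 4 higher without overlap, against 6.08% and 5.88% of all genes. Without KO soleus array 3 the soleus median turned to 0.05, with 22 of 45 below 0 and a median of all genes of -0.01. With each array centred on its median the TA median of the members was -0.07, with 23 below 0, and that of all genes 0.04. For the interaction 0 of 45 passed, where 0.0384% of all genes passed, and 6 had an unadjusted p under 0.05, against 5.71%. The median interaction was 0.14 (all genes 0.01), and 31 of 45 were above 0 (68.9%, all genes 51.5%), that is, less negative or more positive in soleus than in TA.

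**Figure D4:**
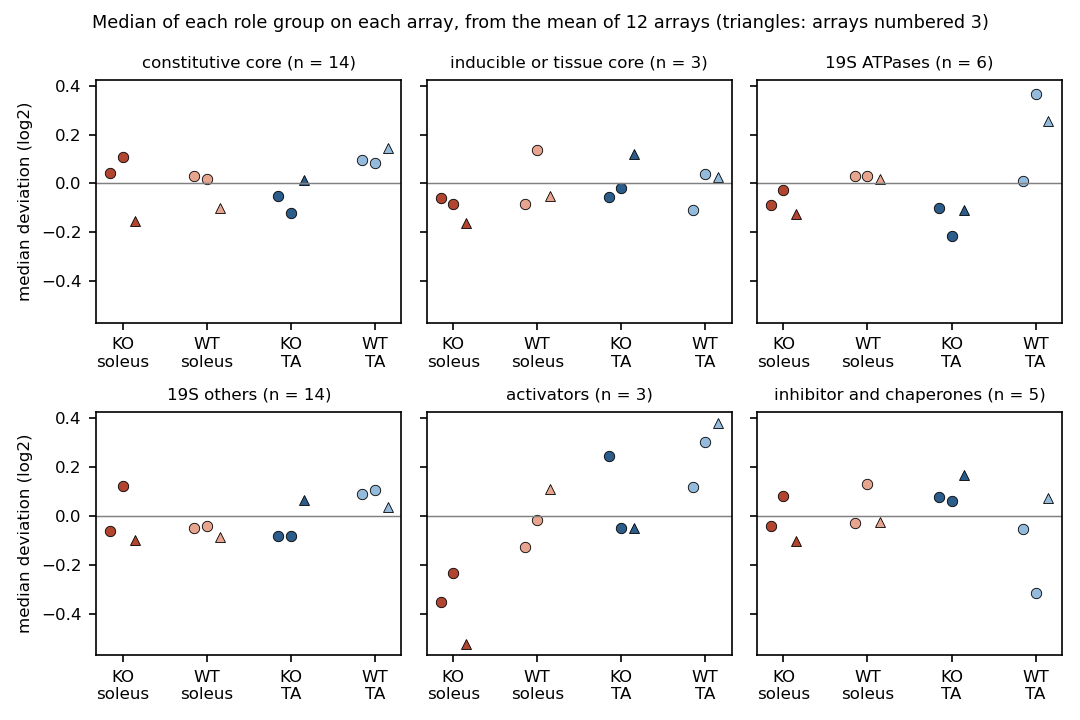
Median over the genes of a role group of their deviation (log2, y axes) from the mean of 12 arrays, on each array by group (x axes). Triangles are the arrays numbered 3. The ATPases, named 19S ATPases in the plot, lie between -0.22 and -0.10 on the KO TA arrays and between 0.01 and 0.37 on the WT TA arrays. On the KO soleus arrays they lie between -0.12 and -0.03, and on the WT soleus arrays between 0.02 and 0.03.

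Equal replicate numbers correlated in their deviations from the group means in TA, by 0.35, 0.16 and 0.56. The TA comparison was therefore also fitted with the replicate number as a block. This block was chosen from these same values, and the labels give no pairing of KO and WT arrays. Deviations cancel within each group, so a shift shared by the arrays numbered 3 also moves arrays 1 and 2 alike. Between KO soleus and WT TA the correlations were 0.28, 0.26 and 0.47, and unequal numbers were not compared. These correlations therefore cannot show that arrays were paired. With this replicate block 6 of 45 members passed, all of them lower in KO TA, where 7.01% of all genes passed and 3.41% did so as lower. They were Psme4 (adjusted p = 0.00694), the lid subunit Psmd6 (0.0181), the scaffold Psmd1 (0.0266), the ATPases Psmc3 (0.0286) and Psmc5 (0.0487), and the alpha subunit Psma3 (0.0336).

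Other signals moved with the TA comparison. All 5 slow fibre markers averaged higher in KO TA, with 0 past the test. Their mean lay between 8.43 and 8.82 on the KO TA arrays and between 5.56 and 8.11 on the WT TA arrays, far under the soleus. By array the WT TA means were 7.83, 8.11 and 5.56, so the low end was the array numbered 3. Of 6 lymphocyte markers 2 could be tested, and their mean lay between 5.23 and 6.06 in KO TA and between 7.40 and 7.62 in WT TA. Of these Ighm, the immunoglobulin mu chain, fell by 3.51 on the log2 scale (adjusted p = 0.00874), and Cd3e lay at 4.16 and 4.26. Fast fibre marker signals lay at the top of the table in TA, where Myh4 gave the same 15.91 on all 3 WT TA arrays, so no difference between KO TA and WT TA was read from them. Means of the myeloid, endothelial and fibroblast lists overlapped between KO TA and WT TA, and all 6 lists overlapped between KO soleus and WT soleus. The part of these signals in the proteasome values was not tested.

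Between the muscles, 2 members passed in WT soleus against WT TA, both lower in soleus, where 10.8% of all genes passed and 6.3% did so as lower. At an unadjusted p under 0.05 there were 13 of 45, against 27.1% of all genes. Psme4 had the largest difference, -0.92 (SE 0.14, adjusted p = 0.00359, and 0.0124 without the arrays numbered 3), and no array of WT soleus reached any of WT TA. This comparison and KO against WT in TA share the WT TA arrays. Psmb7 gave 12.56, 12.72 and 12.47 in WT soleus and 13.11, 13.00 and 12.87 in WT TA, without overlap (log2 difference -0.41, SE 0.09, adjusted p = 0.0222). The Psmb7 call was lost with each array centred on its median (-0.26, adjusted p = 0.11) and without any 1 of WT soleus arrays 1 and 3 and WT TA arrays 1 and 2 (adjusted p from 0.059 to 0.0778). It was also lost on the WT arrays alone (adjusted p = 0.0905). Psmg4, a chaperone of the alpha ring, lay higher in WT soleus at 4.65, 4.93 and 4.34, against 3.72, 3.71 and 4.22 in WT TA, and did not pass (0.75, SE 0.22, adjusted p = 0.0521). Without the arrays numbered 3 it passed (1.07, adjusted p = 0.0294), and with all kept probe sets averaged it shrank to 0.36 (adjusted p = 0.064). On the WT arrays alone it did not pass (0.73, adjusted p = 0.0937).

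In KO soleus against KO TA 3 members passed, 2 higher and 1 lower in soleus, where 8.97% of all genes passed, 4.35% as higher and 4.62% as lower. At an unadjusted p under 0.05 there were 12 of 45, against 24% of all genes. Psmd5 rose by 0.88 in KO soleus (SE 0.16, adjusted p = 0.00957), with its 3 KO soleus arrays above its 3 KO TA arrays. The call held in all alternatives but the fit on KO arrays alone (adjusted p = 0.068). Psmb7 gave 12.51, 12.46 and 12.34 in KO soleus and 12.88, 12.82 and 12.72 in KO TA (log2 difference -0.37, SE 0.09, adjusted p = 0.0377). Psma5 gave 12.28, 12.43 and 12.39 in KO soleus and 12.03, 11.96 and 12.16 in KO TA (0.32, SE 0.08, adjusted p = 0.0434). Neither pair of groups overlapped. Both of these calls were lost without the arrays numbered 3 (adjusted p = 0.0642 for Psmb7 and 0.0948 for Psma5). Without any 1 of the 6 KO arrays the Psmb7 call was lost, and without any but KO TA array 3 that of Psma5. Over the alternatives the adjusted p ran from 0.00817 to 0.115 for Psmb7 and from 0.0302 to 0.146 for Psma5. A second Psma5 probe set differed by 0.62 (adjusted p = 0.0174 over all probe sets).

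Psme4 lay lower in KO soleus than in KO TA on all arrays and did not pass (log2 difference -0.32, adjusted p = 0.218). With the replicate number as a block, 8 members passed in WT soleus against WT TA, all lower, where 18.2% of all genes passed and 10.3% did so as lower. These were Psme4, Psmb7, Psma6, Psmb3, Psmd13, Psma3, Psme3 and Psmd1. In KO soleus against KO TA 5 passed with the block, where 16.9% of all genes passed, 7.89% as higher and 8.99% as lower. They were Psmd5 and Psma5 higher and Psmb7, Psme3 and Psmd3 lower. Psme3 had the lowest difference of these, -0.56 (adjusted p = 0.0501 without the block and 0.0045 with it).

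Over all members the WT muscle differences had a median of -0.10, with 33 of 45 lower in soleus (73.3%, all genes 55.1%), where the median of all genes was -0.02. With each array centred on its median the members' median was 0.04, with 18 of 45 lower, and that of all genes 0.06. The sign of the members' median thus turned with the scaling, while it lay below that of all genes under both. Without overlap 11 members were lower and 3 higher in WT soleus, against 21.6% and 13.7% of all genes. Slow fibre markers passed as higher in soleus for 5 of 5 genes in both genotypes. The endothelial marker mean lay between 8.58 and 8.78 in WT soleus and between 7.99 and 8.34 in WT TA, with 2 of 5 genes past the test. The lymphocyte mean, of 2 genes, lay between 4.63 and 5.30 in WT soleus and between 7.40 and 7.62 in WT TA. Of these genes Ighm averaged 5.86 in WT soleus and 10.75 in WT TA, and Cd3e 4.11 and 4.26. The part of these marker signals in the muscle differences was not tested. In the KO muscles the member median was 0.02, where the median of all genes was -0.02. Of the members 26 of 45 were higher in KO soleus than in KO TA (57.8%, all genes 42.9%). Without overlap 8 members were lower and 4 higher, against 18.5% and 11.7% of all genes.

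Different probe sets of a gene were compared as a check. For 18 members 24 other probe sets had a mean log2 above 5. Their sign matched that of the probe set used for 20 of 24 in TA and for 16 of 24 in soleus. They matched for 16 of 24 between the WT muscles, for 19 of 24 between the KO muscles and for 17 of 24 in the interaction.

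Genes that work with the proteasome were counted in 4 further lists. Of 9 genes for assembly and control 7 were tested. Ecpas, the adaptor that fastens the cap to the core, gave 9.10, 8.78 and 9.13 in KO TA and 10.01, 9.81 and 9.93 in WT TA. With this probe set it fell by 0.91 in KO TA (SE 0.16, adjusted p = 0.0177), without overlap, and was the single gene of the list past the test there. The call was lost without the arrays numbered 3 (-0.97, adjusted p = 0.0813), without any 1 of KO TA arrays 2 and 3 and WT TA arrays 1 and 3 (adjusted p from 0.0505 to 0.0716), on the TA arrays alone (adjusted p = 0.067), and with all kept probe sets averaged (-1.19, adjusted p = 0.272). A second Ecpas probe set of like brightness fell by 1.24 in KO TA in the fit over all probe sets (adjusted p = 0.00911).

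In soleus Ecpas gave 9.03, 8.78 and 8.62 in KO and 9.21, 9.51 and 9.73 in WT, without overlap (-0.67, SE 0.16, adjusted p = 0.227). There the second probe set showed no such difference (0.00). The interaction of Ecpas was 0.24 (adjusted p = 0.913). With the second probe set it was 1.24 in the fit over all probe sets (adjusted p = 0.219), so its size depended on the probe set. Nfe2l1, the transcription factor that raises proteasome genes when the proteasome is inhibited, averaged 9.50 ± 0.62 in KO soleus, 9.28 ± 0.63 in WT soleus, 9.42 ± 0.64 in KO TA and 8.77 ± 0.49 in WT TA (SD, n = 3 each). Its differences were 0.22 in soleus and 0.66 in TA (adjusted p = 0.999 and 0.508). Nfe2l2, its relative in the oxidative stress response, differed by 0.29 and 0.19 (adjusted p = 0.663 and 0.578). Between KO soleus and KO TA Nfe2l2 differed by 0.50 (adjusted p = 0.0677, and 0.0482 with the replicate block).

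Akirin2, which helps bring proteasomes into the nucleus, differed by 0.45 in KO TA against WT TA (adjusted p = 0.0703, and 0.0438 with the replicate block). It was higher in WT soleus than in WT TA by 0.58 (SE 0.12, adjusted p = 0.0121). That call was lost without the arrays numbered 3 (adjusted p = 0.0956), without WT soleus array 1 (0.0506) and on the WT arrays alone (0.0666). Txnl1, a thioredoxin-like protein bound to the cap, was higher in KO soleus than in KO TA by 0.38 (SE 0.10, adjusted p = 0.0435), a call lost without any 1 of the 6 KO arrays (adjusted p from 0.0833 to 0.123). It was also lost without the arrays numbered 3 (0.30, adjusted p = 0.171), on the KO arrays alone (adjusted p = 0.0713) and with all kept probe sets averaged (0.31, adjusted p = 0.111). The deposited table, median centring, no filter on dim probe sets and a robust variance trend ended the call too (adjusted p from 0.054 to 0.065). Ngly1, the deglycosylating enzyme that processes Nfe2l1, differed by -0.40 in WT soleus against WT TA (adjusted p = 0.0512, and 0.0353 with the replicate block). Of 18 genes for substrate recognition, unfolding and deubiquitination 16 were tested and 0 passed in any of the 5 comparisons. With the replicate block Uchl5, a deubiquitinase of the cap, passed as lower in WT soleus than in WT TA (-0.66, adjusted p = 0.0091), as did Zfand5, a proteasome-binding zinc finger protein (-0.55, adjusted p = 0.0456). The smallest p of these in both KO against WT comparisons was that of Ube3c, a ubiquitin ligase at the proteasome, at -0.50 in soleus (adjusted p = 0.54) and -0.55 in TA (adjusted p = 0.207). Of 6 genes for ubiquitin and its activating enzymes only Uba6 could be tested, at 0.59 in soleus and 0.65 in TA (adjusted p = 0.696 and 0.353).

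Of 10 genes for peptide presentation and interferon control, 7 were tested and 0 passed in KO against WT. Irf1, an interferon-responsive factor, differed by 0.47 in TA (adjusted p = 0.197), and Tap2, a peptide transporter, by -0.21 in soleus (adjusted p = 0.719) at a low signal. B2m, the light chain of class I molecules, was higher in WT soleus than in WT TA by 0.72 (SE 0.18, adjusted p = 0.0351), a call lost without any 1 of WT soleus arrays 1 and 2 and WT TA arrays 2 and 3 (adjusted p from 0.0795 to 0.113). It was also lost on the WT arrays alone (adjusted p = 0.119) and with all kept probe sets averaged (0.76, adjusted p = 0.0571).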

How the data were processed

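Muscle RNA was hybridised to 1-colour Affymetrix arrays, 12 in all, and MAS5 is named, with no version or role, in the submitters' processing notes. The deposited table holds log2 signals of 45101 probe sets with 0 missing values, and no source used here says how the authors summarised them. The 2% trimmed means of the arrays differed by up to 1.11 times, so quantile normalization was applied. A probe set had to exceed its array's 40th percentile (log2 2.76) on 3 or more arrays, and the brightest single-symbol probe set of each gene was used. In R 4.3.3, limma 3.58.1 fitted 4 group means over 12 arrays with a variance trend. Tests were 2-sided, adjusted by Benjamini-Hochberg over 13010 genes, with a threshold of 0.05. The steps were tested on simulated data with noise drawn independently for each array, which does not cover deviations shared by equal replicate numbers. For 1 gene alone, exact permutation of 3 against 3 gives at best p = 0.1.

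Members and gene lists were chosen with earlier results of these data known. Named genes are the catalytic and inducible subunits, H6pd, Nfe2l1, Nfe2l2 and, in each comparison, members and list genes past the test or of smallest p. Psmd6, Psmd1, Psmd14, Psmd11, Psma7, Psmb1 and the probe sets of Psmc6 were picked after their values were seen. Equal replicate numbers correlated in their deviations from the group means by 0.35, 0.16 and 0.56 in TA, 0.35, 0.14 and 0.59 between WT muscles and 0.49, 0.43 and 0.59 between KO muscles, so the block is given there. The pairing comes from these values and not from the labels. For KO and WT soleus (0.43, 0.09 and 0.61) the value of the arrays numbered 2 fell short of the limit of 0.1. Alternatives changed the normalization, filter, probe set rule, pseudocount, variance model, array weights, block and arrays. The number of arrays limits the precision, with a median SE of 0.14 for a member. Identical arrays numbered 0.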

Additional observations from a re-analysis of the deposited data

How the results depend on the processing

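In KO against WT soleus 0 members passed under every alternative except array weights, which gave 4 (360 of all genes). In TA the count of 1 became 2 on the deposited table, 2 with a filter on a mean above 5, 3 with array weights, 6 with the replicate block (912 of all genes) and 0 on the TA arrays alone (4 of all genes); it ranged from 1 to 2 without single arrays, and without the arrays numbered 3 it was 1 (52 of all genes). Between WT muscles the count of 2 became 9 with array weights (2808 of all genes), 8 with the replicate block (2371), 6 without the arrays numbered 3 and 1 on WT arrays alone (746), and ranged from 1 to 3 without single arrays. Between KO muscles the count of 3 became 5 with array weights, 5 with the replicate block (2195) and 0 on KO arrays alone (653), and ranged from 1 to 3 without single arrays. For the interaction it was 0 throughout. Between KO and WT soleus the correlation of the arrays numbered 2 (0.09) fell short of the limit of 0.1. The replicate block gave 0 members there. The member median in TA was -0.0695 with median centring and -0.0785 with all probe sets averaged, and lay between -0.150 and -0.0607 without single arrays. In soleus it lay between -0.107 and 0.0476 without single arrays, above 0 without KO soleus array 3. With median centring it was 0.0744 for the interaction, 0.0383 between WT muscles and 0.0941 between KO muscles, and 0.102 between KO muscles without the arrays numbered 3. Of 570 values of named genes under alternatives, 489 kept direction and side of the threshold, 57 lost a call, 17 gained one and 7 changed sign. Sign changes were those of Psmb8 in soleus (0.0194 with array weights, -0.252 to 0.0183 without single arrays), Psmb10 in soleus (-0.106 to 0.0536 without single arrays), Psmb8 in TA (-0.0942 to 0.076 without single arrays) and Psmb9 in TA (-0.0034 without the arrays numbered 3, -0.0354 to 0.138 without single arrays). The cause was not tested, except that fits on 2 groups hold fewer arrays. Signals near the low end of the table limit Psmb9 and Psmg4.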
